A study of Mus musculus with 6 samples.

Results

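The potassium channel genes of the mouse were followed in ureteric bud cells mutant for Dicer, the enzyme that cuts hairpin precursors into mature miRNAs. The members were all genes whose symbol is Kcn, 1 or more further letters and a closing number, with a probe set of 1 symbol on the Affymetrix whole-transcript array. This gave 85 of 19296 genes. Where a gene had 2 probe sets, as Kcnh8 and Kcnma1 did, the one used was selected on its higher mean over all 6 arrays, and the split into members above and below the median signal of all probe sets (7.51 on the log2 scale) was chosen by the same means. These means are a description of the signal and were given no test. The comparison of the genotypes was not part of the rule.

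Each of 3 arrays held Dicer mutant cells (Dicerc/-; Hoxb7Cre; Rosa26YFP), and each of 3 others held control cells, whose genotype is given as wild type (control). Both came from trypsinized kidneys at E15.5 of a mixed strain background and were sorted as YFP+ ureteric bud cells. The Hoxb7Cre transgene is active in the ureteric bud, where it deletes the conditional Dicer allele, the other allele being null in every cell of the mutant. Because the sort used YFP in both groups while the control is written as wild type, the Cre and reporter alleles of the control are not known, and an effect of Cre cannot be told apart from that of Dicer. The labels call the replicates biological and do not say whether embryos were pooled for one; the p-values cover the spread among these 6 arrays.

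Potassium channels are membrane proteins that let potassium ions pass along their gradient. In the collecting duct, which the ureteric bud forms, apical channels secrete potassium and basolateral ones recycle the potassium that the sodium pump brings in and set the membrane voltage. Voltage-gated members (Kcna to Kcnd, Kcnh and Kcnq) open on depolarization, inward rectifiers (Kcnj) and two-pore channels (Kcnk) carry resting currents, Kcnma, Kcnn and Kcnt channels answer to intracellular calcium or sodium, and Kcnab, Kcne, Kcnip and Kcnmb proteins are auxiliary subunits. Many members are best known from nerve and muscle.

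The median signal per array was 7.47 to 7.54, and Dicer1 itself (probe set 10402444) read 9.80, 9.72 and 9.64 in the Dicer mutant arrays and 10.31, 10.38 and 10.25 in the control arrays. The groups did not overlap, at a log2 fold change of -0.59 ± 0.06 (standard error; limma, adjusted p = 0.0005; two-sided exact permutation test, p = 0.1, the smallest that 3 against 3 arrays allow). The Dicer mutant kept 66.3% of the control's Dicer1 signal, and loss of the enzyme was not measured. Of the ureteric epithelium markers, 14 of 14 lay above the median signal, from 9.48 to 12.90. In the Dicer mutant 7 were lower and 1, Wnt9b, was higher. Their summed linear signals were 42632 to 43880 in the Dicer mutant and 48477 to 49567 in the control. As background for all marker counts here, 25.8% of all genes passed limma's test at an adjusted p of 0.05. The share was 39.6% above the median signal and 11.9% below it. The nerve and glia markers measured, 7 of 11 listed, all lay below it, with summed linear signals of 537 to 579 in the Dicer mutant and 490 to 522 in the control. 1 of the 7, Tubb3, was higher in the Dicer mutant (log2 fold change 0.69, adjusted p = 0.00119). The muscle markers summed to 585 to 661 in the Dicer mutant and 717 to 872 in the control, and 2 of 5 were lower, Acta2 and Myh11. Cap mesenchyme markers summed to 1789 to 1930 in the Dicer mutant and 626 to 667 in the control. Of these 5, Six2 was higher (log2 fold change 3.29) and 4 did not pass. Proximal tubule markers summed to 763 to 798 in the Dicer mutant and 561 to 758 in the control. Of these 5, Lrp2 was higher (log2 fold change 1.05), and the other 4 had negative log2 fold changes. Slc34a1 (-0.69) and Hnf4a (-0.31) were called lower. For intercalated cells the sums were 1145 to 1177 in the Dicer mutant and 937 to 1079 in the control. Of these 6, Kit was higher (log2 fold change 0.38). The other 5 did not pass, and all 5 had negative log2 fold changes. The part of these marker differences in the channel results was not tested. A lower signal in sorted bulk cells can mean fewer cells of a type or less RNA per cell, and these cannot be told apart here.

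Of the 85 potassium channel genes, 6 were higher and 12 were lower in Dicer mutant cells and 67 did not pass the test, which was limma's moderated test with an adjusted p of 0.05 over all 19296 genes. The higher genes were Kcnt2, Kcnk6, Kcnj16, Kcna5, Kcnmb4 and Kcnk5. The lower genes were Kcnh5, Kcnn4, Kcnq1, Kcnd2, Kcnab1, Kcnc4, Kcnc2, Kcna2, Kcnab3, Kcnj3, Kcna10 and Kcnj4. Across all genes 25.8% passed, 11.8% as higher and 13.9% as lower, so the 18 of 85 members lie near the background. Only Kcnh5 and Kcnn4 changed by more than 2-fold, both downward. Without control replicate 3 the counts were 8 higher and 20 lower, and without mutant replicate 2 they were 3 higher and 10 lower. With each array centred on its median the counts were 8 higher and 10 lower, and with quantile normalization 8 higher and 9 lower.

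Above the median signal lay 12 members, and 7 of them passed, where 39.6% of all genes above it did. The line was drawn on the mean of both groups, and Kcnh5 (means 7.11 in the Dicer mutant and 8.89 in the control) and Kcnn4 (7.26 in the Dicer mutant and 8.46 in the control) are above it only through the control, so nothing is read from this share. These 7 were Kcnh5, Kcnn4, Kcnq1, Kcnc2 and Kcna2, which fell, and Kcnj16 and Kcnk5, which rose. The other 5 above the median were Kcnk1, Kcna3, Kcng1, Kcnh7 and Kcnj10. Of the 73 members below it, 11 passed, against 11.9% of all genes below it. The members nearest to this line were Kcnj10 and Kcnh7 (7.74 each) above it and Kcnk3 (7.28) and Kcnj15 (7.27) below it.

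**Figure D1:**
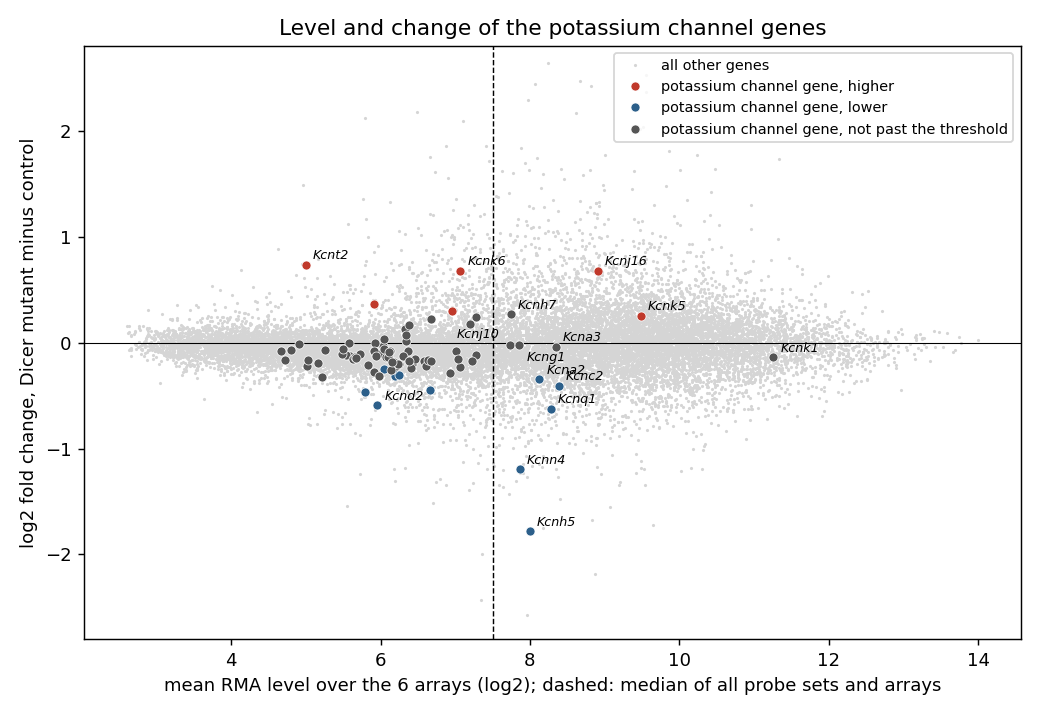
Mean RMA level over the 6 arrays (x axis, log2) against the log2 fold change of Dicer mutant minus control (y axis) for all genes (grey; 5 genes lie outside the axis range) and the 85 potassium channel genes, coloured by the limma call, with a dashed line at the median signal of 7.51. Most members sit left of the line within a narrow band just below 0, while Kcnh5 (-1.78) and Kcnn4 (-1.20) stand far below the other members.

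Most members that did not pass had small negative differences. The log2 fold change was negative for 70 of 85 members (82.4%), against 61.7% of all genes and 71.4% of the genes below the median signal. The median was -0.13 over the members, -0.05 over all genes and -0.07 over the genes below the median signal. With quantile normalization the medians were -0.07 over the members and -0.02 over all genes. The median level of the 73 members below the line was 6.005, 6.05 and 6.08 in the Dicer mutant arrays and 6.28, 6.19 and 6.14 in the control arrays. These groups did not overlap. The nearest arrays were mutant replicate 3 and control replicate 3, whose medians over all probe sets also differed, 7.47 and 7.53. The part of this offset between arrays in the separation was not tested. All genes below the line had medians of 5.70, 5.70 and 5.77 in the Dicer mutant and 5.86, 5.82 and 5.71 in the control, which overlap because mutant replicate 3 lies above control replicate 3. The part of array-wide differences among dim genes in the members' values was not tested. The arrays did not overlap between the groups for 33 of the 85 members, against 42.5% of all genes.

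Promoter windows of 300 bases are printed for 3 of the called members with exactly 1 window. These are the members with the 2 largest falls and the largest rise among them. Whether the promoters have a part in the changes was not tested. The windows run from 250 bases before to 50 bases after the start of the gene in RefSeq (build GRCm38.p6). The window of Kcnh5, which encodes the voltage-gated channel Eag2, lies at chr12:75177283-75177582 on the minus strand. That of Kcnn4, which encodes the intermediate-conductance calcium-activated channel, lies at chr7:24370013-24370312 on the plus strand. That of Kcnt2, which encodes the sodium-activated channel Slick, lies at chr1:140245468-140245767 on the plus strand. Capitals mark CG dinucleotides.
Kcnh5: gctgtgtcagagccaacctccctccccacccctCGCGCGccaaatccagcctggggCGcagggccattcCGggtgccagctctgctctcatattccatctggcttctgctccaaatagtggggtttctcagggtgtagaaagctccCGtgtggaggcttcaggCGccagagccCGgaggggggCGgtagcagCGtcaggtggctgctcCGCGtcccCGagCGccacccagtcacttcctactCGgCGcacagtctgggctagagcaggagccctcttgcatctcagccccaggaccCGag
Kcnn4: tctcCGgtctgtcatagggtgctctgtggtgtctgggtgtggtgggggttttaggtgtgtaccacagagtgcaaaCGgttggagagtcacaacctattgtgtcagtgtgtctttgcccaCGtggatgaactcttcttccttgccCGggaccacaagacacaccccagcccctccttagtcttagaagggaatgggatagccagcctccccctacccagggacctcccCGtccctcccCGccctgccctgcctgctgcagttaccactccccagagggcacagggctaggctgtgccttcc
Kcnt2: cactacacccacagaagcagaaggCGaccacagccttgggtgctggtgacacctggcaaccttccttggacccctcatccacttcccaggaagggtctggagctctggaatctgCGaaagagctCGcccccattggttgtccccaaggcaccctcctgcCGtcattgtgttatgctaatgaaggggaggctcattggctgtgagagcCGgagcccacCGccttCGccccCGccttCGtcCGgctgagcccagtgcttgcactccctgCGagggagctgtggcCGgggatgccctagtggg
The Kcnh5 window holds 17 CG dinucleotides, the Kcnn4 window 6 and the Kcnt2 window 12, where the median over all 32851 RefSeq windows is 7. Windows were matched for 65 of the 85 members, 90 windows in all, with a median of 9 CG dinucleotides. The 15 windows of the 10 matched members that fell had a median of 6, in a range of 0 to 41. The 8 windows of the 5 matched members that rose had a median of 6.5, in a range of 1 to 48. Members with several windows count several times here, among them Kcnc2 (4 windows of 3 to 6) and Kcnj16 (4 windows of 1 to 8). These medians therefore do not describe 1 value per gene. CG content therefore ranged widely in both directions of change. The left and right parts of the binding motif of REST, a repressor of neuronal genes, were searched on both strands: TCAGCACC was in 0 of the 90 member windows and 1.65% of all windows, and GGACAGC was in 10 member windows (11.1%) and 6.56% of all windows. A GATA motif, AGATAA, searched in the same way, was in 4 member windows (4.44%) and 11.2% of all windows. The TATA box, TATAAA, was in 5 member windows (5.56%) and 13.6% of all windows. None of these motifs was in the 3 windows printed.

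Among the 25 voltage-gated genes 7 fell and 1 rose, where 13.9% of all genes fell and 11.8% rose. By level, 19 of the 25 lie below the median signal, where 11.9% of all genes passed, and 6 above it, where 39.6% did. The largest change was that of Kcnh5, which read 6.93, 7.21 and 7.18 in the Dicer mutant arrays and 8.76, 8.90 and 9.003 in the control arrays. The lowest control array lay far above the highest Dicer mutant array. The means were 7.11 ± 0.16 in the Dicer mutant, below the median signal, and 8.89 ± 0.12 in the control, above it (SD, n = 3 each). This is 3.43-fold lower, a log2 fold change of -1.78 ± 0.10 (standard error, adjusted p = 3.03e-05). The other 6 measured Kcnh genes, which encode channels of the ether-a-go-go family, did not pass, and their log2 fold changes ran from -0.18 (Kcnh3) to 0.27 (Kcnh7). Kcnh7 read 7.94, 7.95 and 7.75 in the Dicer mutant and 7.65, 7.81 and 7.37 in the control, so its groups overlapped. The 2 probe sets of Kcnh8 had log2 fold changes of 0.18 and 0.19.

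Kcnq1 encodes the pore of a slow voltage-gated channel that works with Kcne subunits in heart and epithelia. It read 7.85, 7.998 and 8.05 in the Dicer mutant arrays and 8.68, 8.60 and 8.497 in the control arrays, without overlap. The means were 7.97 ± 0.11 in the Dicer mutant and 8.59 ± 0.09 in the control (SD, n = 3 each), 1.54-fold lower (log2 fold change -0.62, adjusted p = 0.000828). Its relatives Kcnq3 (-0.09) and Kcnq5 (0.22) did not pass. Kcnq5 missed the threshold narrowly (adjusted p = 0.0507) and was called higher with median centring, with quantile normalization and without control replicate 3.

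The 15 measured genes of the Shaker-related subfamilies Kcna to Kcnd held 5 of the falls and 1 rise, where 25.8% of all genes passed. Their median log2 fold change was -0.21, that of all genes -0.05 and that of the genes below the median signal, where 12 of the 15 lie, -0.07. Of all genes below this signal 11.9% passed. Kcnd2, an A-type channel that inactivates quickly, read 5.81, 5.51 and 5.66 in the Dicer mutant and 6.40, 6.22 and 6.14 in the control. Its log2 fold change was -0.59 (standard error 0.10, adjusted p = 0.00303), and its groups lay apart at a level below the median signal. Kcnd1 (0.16) and Kcnd3 (-0.18) did not pass. Of the Kcnc genes, which encode fast delayed rectifiers, Kcnc4 read 6.38, 6.34 and 6.58 in the Dicer mutant and 6.91, 6.88 and 6.85 in the control. Kcnc2 read 8.01, 8.33 and 8.21 in the Dicer mutant and 8.53, 8.70 and 8.54 in the control. Both fell with no overlap, by log2 fold changes of -0.44 and -0.41 (adjusted p = 0.00361 and 0.0140), and Kcnc1 had a log2 fold change of -0.26 (adjusted p = 0.0966). Without control replicate 2 the adjusted p of Kcnc2 was 0.0504.

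The Kcna genes encode the classical Shaker channels, and their members moved in both directions. Kcna2 read 8.04, 7.88 and 7.93 in the Dicer mutant and 8.20, 8.21 and 8.47 in the control, a log2 fold change of -0.35 (adjusted p = 0.0216). Kcna5, which opens rapidly and is known from heart and smooth muscle, read 5.93, 6.15 and 6.19 in the Dicer mutant and 5.82, 5.64 and 5.72 in the control. It was the voltage-gated gene that rose, with a log2 fold change of 0.36 (adjusted p = 0.0161). Kcna10, a relative that responds to cyclic nucleotides, read 5.94, 5.92 and 5.91 in the Dicer mutant and 6.18, 6.30 and 6.04 in the control (log2 fold change -0.25, adjusted p = 0.0387). All 3 calls depended on single arrays. That of Kcna2 was lost without mutant replicate 2 or 3 (adjusted p = 0.0789 and 0.0682), and that of Kcna5 without control replicate 2 or mutant replicate 2 or 3 (0.0580, 0.0620 and 0.0601). Kcna10 did not pass in 9 of its 13 alternatives, median centring included (adjusted p = 0.0753). Kcna3 read 8.30, 8.33 and 8.34 in the Dicer mutant and 8.42, 8.34 and 8.33 in the control, and its interval ran from -0.16 to 0.09. The other 4, Kcna1, Kcna4, Kcna6 and Kcna7, had log2 fold changes of -0.22 to -0.08 and did not pass, nor did Kcnb2, a delayed rectifier (-0.21, adjusted p = 0.0714).

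**Figure D2:**
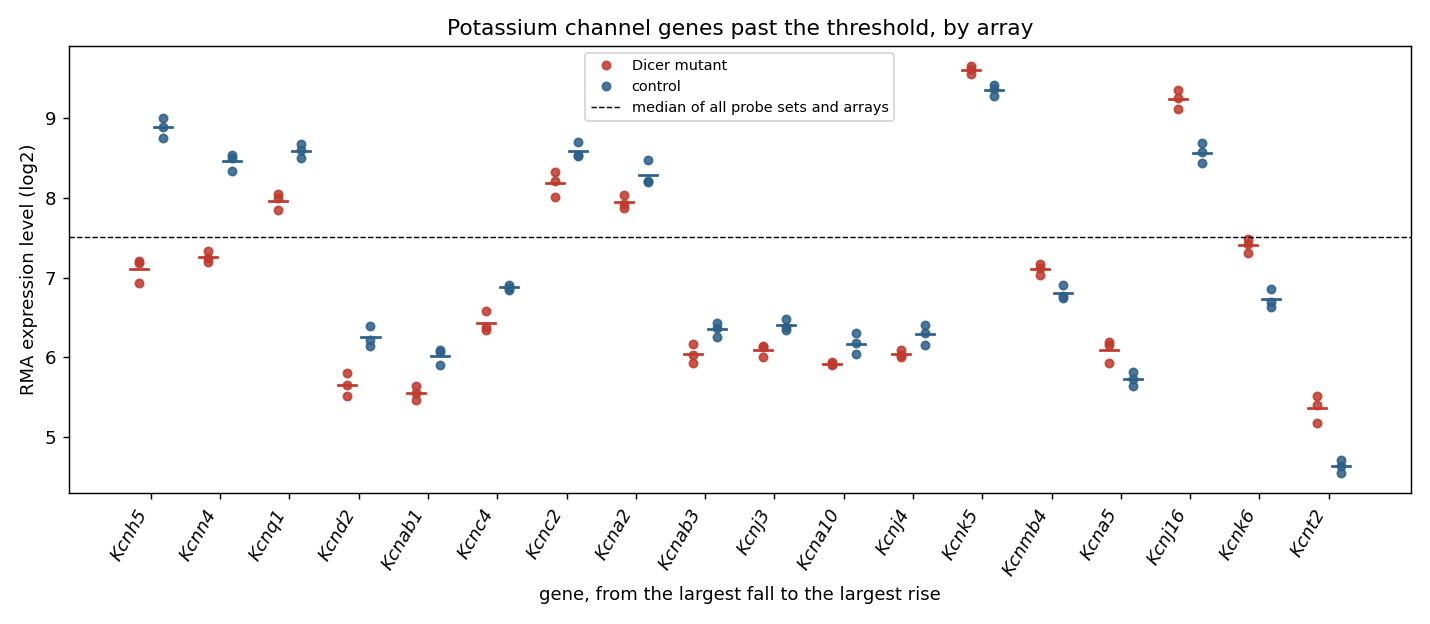
RMA level (y axis, log2) of the 18 potassium channel genes past the threshold on each of the 3 Dicer mutant arrays (red, left) and the 3 control arrays (blue, right), with bars at the group means and a dashed line at the median of all probe sets and arrays. The groups do not overlap for any of the 18 genes, which were selected by the test between these same groups. Over all genes 42.5% do not overlap. The gap is widest for Kcnh5 (mean 7.11 in the Dicer mutant and 8.89 in the control).

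The 9 measured genes of Kcnf, Kcng, Kcns and Kcnv encode subunits that form no channel alone and modify Kcnb channels. None of them passed in limma's test, and their log2 fold changes ran from -0.33 (Kcnv1) to 0.13 (Kcns1). Below the median signal lie 8 of the 9, and of all genes there 11.9% passed. Kcng1, the member of this class above the median signal, read 7.79, 7.84 and 7.91 in the Dicer mutant and 7.93, 7.74 and 7.93 in the control. Its groups overlapped, and the interval of its log2 fold change was -0.19 to 0.14. Kcns3 (-0.24, adjusted p = 0.0546) came nearest to the threshold and was called lower with array weights and without control replicate 3. Kcnf1 (-0.09) and Kcnv2 (0.00) were the members with the highest mean of their subfamilies.

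Of the 15 inward rectifiers 1 rose and 2 fell, where 11.8% of all genes rose and 13.9% fell. Below the median signal lie 13 of the 15, and of all genes there 11.9% passed. Kcnj16 encodes a subunit that forms no functional homomer of its own and joins Kcnj10 or Kcnj15 in the basolateral membrane of kidney tubule cells. It read 9.26, 9.36 and 9.12 in the Dicer mutant arrays and 8.58, 8.69 and 8.43 in the control arrays. All Dicer mutant arrays lay above all control arrays, with a log2 fold change of 0.68 ± 0.09 (standard error, adjusted p = 0.00107). Its partner Kcnj10 read 7.64, 7.76 and 7.77 in the Dicer mutant and 7.93, 7.57 and 7.75 in the control. Its groups overlapped, and the log2 fold change was -0.03 with an interval of -0.24 to 0.19. The second partner, Kcnj15, read 7.29, 7.52 and 7.37 in the Dicer mutant and 7.14, 7.04 and 7.28 in the control. These groups were separated by a very small gap, and the log2 fold change of 0.24 did not pass (adjusted p = 0.0786). It passed with median centring (adjusted p = 0.0423), with quantile normalization (0.0333) and without control replicate 3 (0.0379). Whether the 3 genes differ in their change was not tested.

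Kcnj1 encodes ROMK, the apical channel through which principal cells secrete potassium. It read 5.64, 5.46 and 5.64 in the Dicer mutant and 5.70, 5.59 and 5.45 in the control, below the median signal on every array. The groups overlapped, with a log2 fold change of 0.00 and an interval of -0.19 to 0.19. On the same arrays 5 of 6 principal cell markers were lower in the Dicer mutant, against 13.9% of all genes. Their summed linear signals were 2846 to 3082 in the Dicer mutant and 3998 to 4625 in the control. The part of principal cells in the channel results was not tested.

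Kcnj3, a subunit of the channels that G proteins open, read 6.13, 6.14 and 6.01 in the Dicer mutant and 6.34, 6.48 and 6.38 in the control (log2 fold change -0.31, adjusted p = 0.0102). Kcnj4, a strong inward rectifier of brain and heart, read 6.02, 6.09 and 6.0 in the Dicer mutant and 6.41, 6.15 and 6.31 in the control (-0.25, adjusted p = 0.0431). Both lay below the median signal and their groups did not overlap. The Kcnj3 call was lost with quantile normalization (adjusted p = 0.0710), and Kcnj4 did not pass in 10 of its 13 alternatives, among them median centring (0.0559) and quantile normalization (0.168). Of the ATP-sensitive pores, Kcnj11 had a log2 fold change of -0.29 (adjusted p = 0.0784) and Kcnj8 one of -0.20 (adjusted p = 0.172). The other 7, Kcnj2, Kcnj5, Kcnj6, Kcnj9, Kcnj12, Kcnj13 and Kcnj14, did not pass, with log2 fold changes of -0.32 to -0.01.

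Of the 14 two-pore genes, whose channels carry leak currents, 2 rose and 0 fell in limma's test. Of all genes 11.8% rose and 13.9% fell. Below the median signal lie 12 of the 14, and of all genes there 11.9% passed. Kcnk6 (TWIK-2) read 7.31, 7.43 and 7.48 in the Dicer mutant arrays and 6.86, 6.69 and 6.63 in the control arrays. The groups lay well apart, with a log2 fold change of 0.68 ± 0.08 (standard error, adjusted p = 0.000632). Kcnk5 (TASK-2), an alkali-activated channel known from the proximal tubule, read 9.62, 9.66 and 9.56 in the Dicer mutant and 9.37, 9.28 and 9.42 in the control. Its rise was small, a log2 fold change of 0.25 (adjusted p = 0.0175). The call was lost without control replicate 2, mutant replicate 1 or mutant replicate 2 (adjusted p = 0.0551, 0.0655 and 0.0635), where the log2 fold changes were 0.21, 0.25 and 0.23.

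Kcnk1 (TWIK-1) read 11.16, 11.26 and 11.15 in the Dicer mutant and 11.36, 11.30 and 11.32 in the control. All Dicer mutant arrays lay below all control arrays, but the difference was small and did not pass (log2 fold change -0.14, interval -0.27 to -0.01, adjusted p = 0.120). It passed with a variance trend (adjusted p = 0.0264) and with dim genes left out (adjusted p = 0.0434). The other 11 two-pore genes had log2 fold changes of -0.23 (Kcnk15) to 0.07 (Kcnk10) and did not pass. These included Kcnk3 (-0.12), an acid-sensitive channel, and the mechanosensitive Kcnk2 and Kcnk4 (-0.20 and -0.08).

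Among the 8 genes of the calcium-activated and Slo channels, 1 fell and 1 rose, where 25.8% of all genes passed. By level, 7 of the 8 lie below the median signal, where 11.9% of all genes passed. Kcnn4, whose channel is opened by calcium through calmodulin and is known from epithelia and blood cells, read 7.20, 7.34 and 7.25 in the Dicer mutant arrays and 8.498, 8.35 and 8.54 in the control arrays. The control arrays were all above the median signal and the Dicer mutant arrays all below it. The means were 7.26 ± 0.07 in the Dicer mutant and 8.46 ± 0.10 in the control (SD, n = 3 each), 2.29-fold lower, at a log2 fold change of -1.20 ± 0.07 (standard error, adjusted p = 4.06e-05). Of the blood markers 5 of 6 were measured, all 5 below the median signal, with summed linear signals of 357 to 372 in the Dicer mutant and 401 to 432 in the control; Ptprc fell (log2 fold change -0.45, adjusted p = 0.0155). The part of blood cells in the Kcnn4 result was not tested. None of the small-conductance relatives Kcnn1, Kcnn2 and Kcnn3 passed in limma's test (-0.16, -0.22 and -0.17).

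Kcnt2 read 5.40, 5.18 and 5.51 in the Dicer mutant arrays and 4.71, 4.63 and 4.54 in the control arrays. It rose without overlap, 1.66-fold, at a log2 fold change of 0.73 ± 0.09 (standard error, adjusted p = 0.00097), yet stayed below the median signal on every array. The related sodium-activated channel Kcnt1 (-0.19) and the Slo channel of sperm, Kcnu1 (-0.19), did not pass. Kcnma1, the pore of the large-conductance calcium-activated (BK) channel through which flow drives potassium secretion, read 5.56, 5.59 and 5.63 in the Dicer mutant and 5.73, 5.70 and 5.74 in the control. The groups did not overlap, but the difference of -0.13 did not pass (adjusted p = 0.108). A second, dimmer Kcnma1 probe set differed by -0.29 (adjusted p = 0.0425 when every probe set was tested), and the mean of the 2 passed as lower (adjusted p = 0.0316), so the call for Kcnma1 depends on the probe set.

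**Figure D3:**
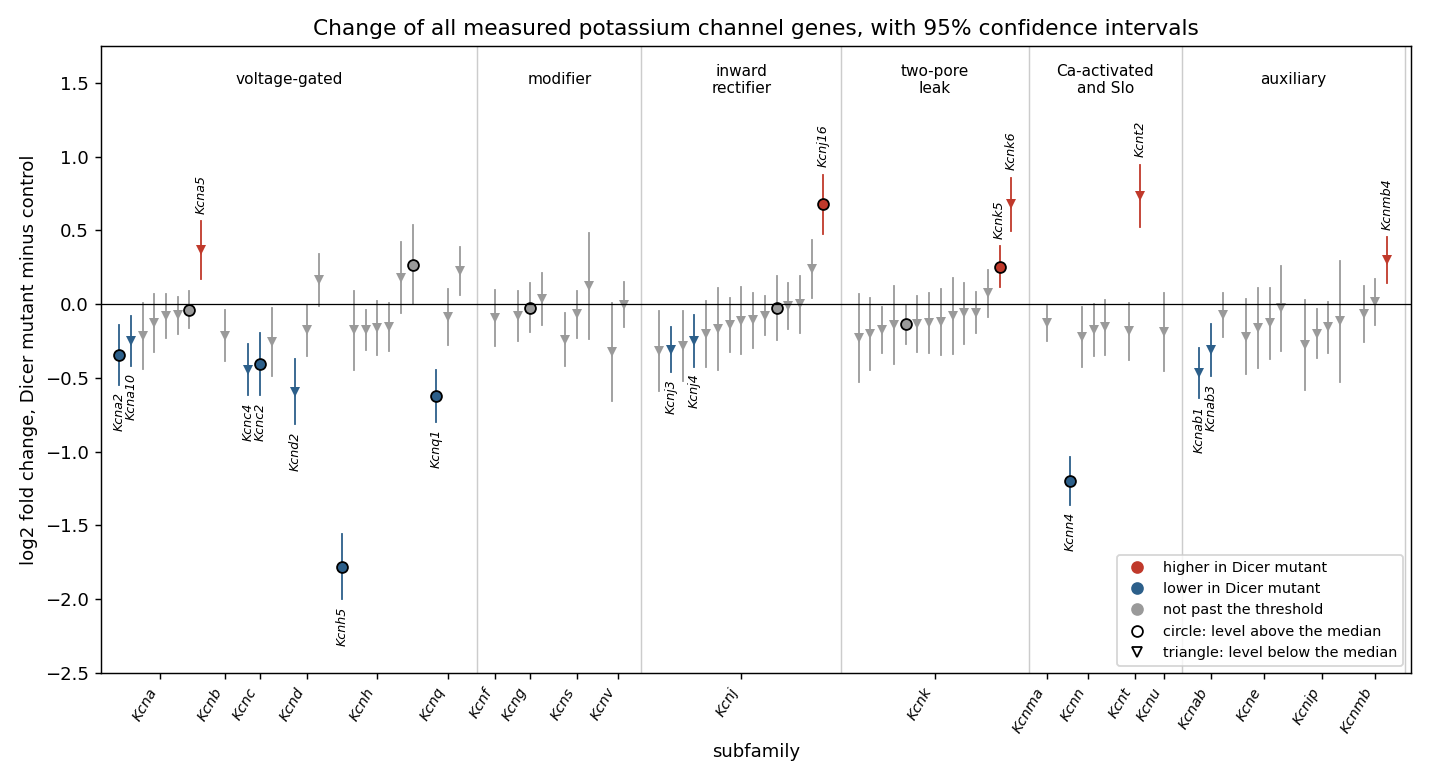
Log2 fold change of Dicer mutant minus control (y axis) with its 95% confidence interval for each of the 85 potassium channel genes, grouped by class and subfamily (x axis) and ordered by change within a subfamily. The 6 genes called higher are red, the 12 called lower are blue, and circles mark the 12 members above the median signal. Most grey intervals lie near 0 on its lower side, and Kcnh5 and Kcnn4 stand apart from the other members of their subfamilies.

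The 14 auxiliary subunit genes all lay below the median signal, and 2 fell and 1 rose. Of all genes below it 11.9% passed. Kcnab1, a cytoplasmic beta subunit that speeds inactivation of Kcna channels, read 5.56, 5.47 and 5.63 in the Dicer mutant and 6.10, 6.07 and 5.90 in the control. The groups were separate, with a log2 fold change of -0.47 (standard error 0.07, adjusted p = 0.00282). Kcnab3, of the same subfamily, read 6.03, 5.93 and 6.16 in the Dicer mutant and 6.43, 6.37 and 6.25 in the control (-0.31, adjusted p = 0.0208). That call was lost when control replicate 1, control replicate 2, mutant replicate 1 or mutant replicate 2 was left out (adjusted p = 0.0612, 0.0622, 0.0694 and 0.0723). Kcnab2 did not pass (-0.07).

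Kcnmb4, a beta subunit of the BK channel, read 7.04, 7.17 and 7.12 in the Dicer mutant and 6.91, 6.77 and 6.75 in the control. It rose by a log2 fold change of 0.30 (adjusted p = 0.0137). Without mutant replicate 2 the log2 fold change was 0.27 and the call was lost (adjusted p = 0.0535). Its relatives Kcnmb1 (-0.07) and Kcnmb2 (0.02) did not pass. Of all genes below the median signal, where the Kcne and Kcnip genes lie, 11.9% passed. None of the 4 Kcne genes, the small partners of Kcnq1, passed in limma's test, with log2 fold changes of -0.22 (Kcne3) to -0.03 (Kcne1). Kcne1 read 6.21, 5.96 and 5.91 in the Dicer mutant and 6.17, 5.79 and 6.20 in the control, and the groups overlapped. Of the 4 Kcnip genes, calcium sensors that bind Kcnd channels, none passed in that test (-0.28 to -0.12). The nearest was Kcnip3, with 6.21, 6.37 and 6.39 in the Dicer mutant and 6.54, 6.43 and 6.59 in the control (log2 fold change -0.20, adjusted p = 0.0784).

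The members lie on 19 chromosomes, and 18 of them form 10 pairs of neighbours with no other protein-coding gene between them (RefSeq gene order, GRCm38.p6). Both genes passed in 1 pair: Kcna2 and Kcna10 fell, while Kcna3, on the other side of Kcna2, had a log2 fold change of -0.04. Kcnj16 rose beside Kcnj2 (-0.17, not past the threshold), and Kcnk5 rose beside Kcnk16 (-0.14, not past the threshold). Kcna5 rose beside Kcna1 (-0.22, not past the threshold). In the other pairs neither gene passed. Whether neighbours differ from each other was not tested.

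Genes that work with these channels were described from a list of 49, of which 42 were measured. Of these, 9 rose, 11 fell and 22 did not pass, against 25.8% of all genes that passed and 39.6% of those above the median signal, where 19 of the 42 lie. The largest rise was that of Slc12a7, a potassium-chloride cotransporter, with means of 10.15 in the Dicer mutant and 9.11 in the control (log2 fold change 1.04, adjusted p = 4.2e-05). The related Slc12a4 rose by 0.34, while Slc12a2, the sodium-potassium-chloride cotransporter, fell (log2 fold change -0.26). Dpp6 and Dpp10, which both encode membrane partners of Kcnd channels, moved in opposite directions, by log2 fold changes of 0.93 (adjusted p = 0.000648) and -0.80 (adjusted p = 0.00853). Hcn4, a cation channel of the same superfamily that opens on hyperpolarization, rose by 0.67 (adjusted p = 0.00142).

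The kinases and hormone genes that govern potassium handling also moved both ways. Stk39 (SPAK), which phosphorylates the cotransporters, rose by a log2 fold change of 0.57 (adjusted p = 0.00055), and Wnk1 and Oxsr1 of the same cascade by 0.28 and 0.22. Wnk4 and Wnk2 fell (log2 fold changes -0.45 and -0.36). Sgk3 rose by 0.52 (adjusted p = 0.000563), and Sgk1, the aldosterone-induced kinase, fell (-0.75, adjusted p = 0.00108). The mineralocorticoid receptor Nr3c2 (-0.42) and Hsd11b2, which protects it from glucocorticoids (-0.42), were lower, as were the sodium channel subunits Scnn1b (-0.49, adjusted p = 0.00261) and Scnn1g (-0.42, adjusted p = 0.00276), which are also among the principal cell markers counted above. The third subunit, Scnn1a, did not pass (0.08, adjusted p = 0.764). The pump regulator Fxyd4 fell (-0.92) and so did Atp1b2 (-0.27), while Atp1b1 (-0.17, adjusted p = 0.0584) did not pass. Rest, which encodes the repressor REST whose motif parts were searched above, rose by 0.34 (adjusted p = 0.00577). The sulfonylurea receptors Abcc8 and Abcc9, partners of Kcnj11 and Kcnj8, did not pass (-0.06 and -0.02).

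**Figure D4:**
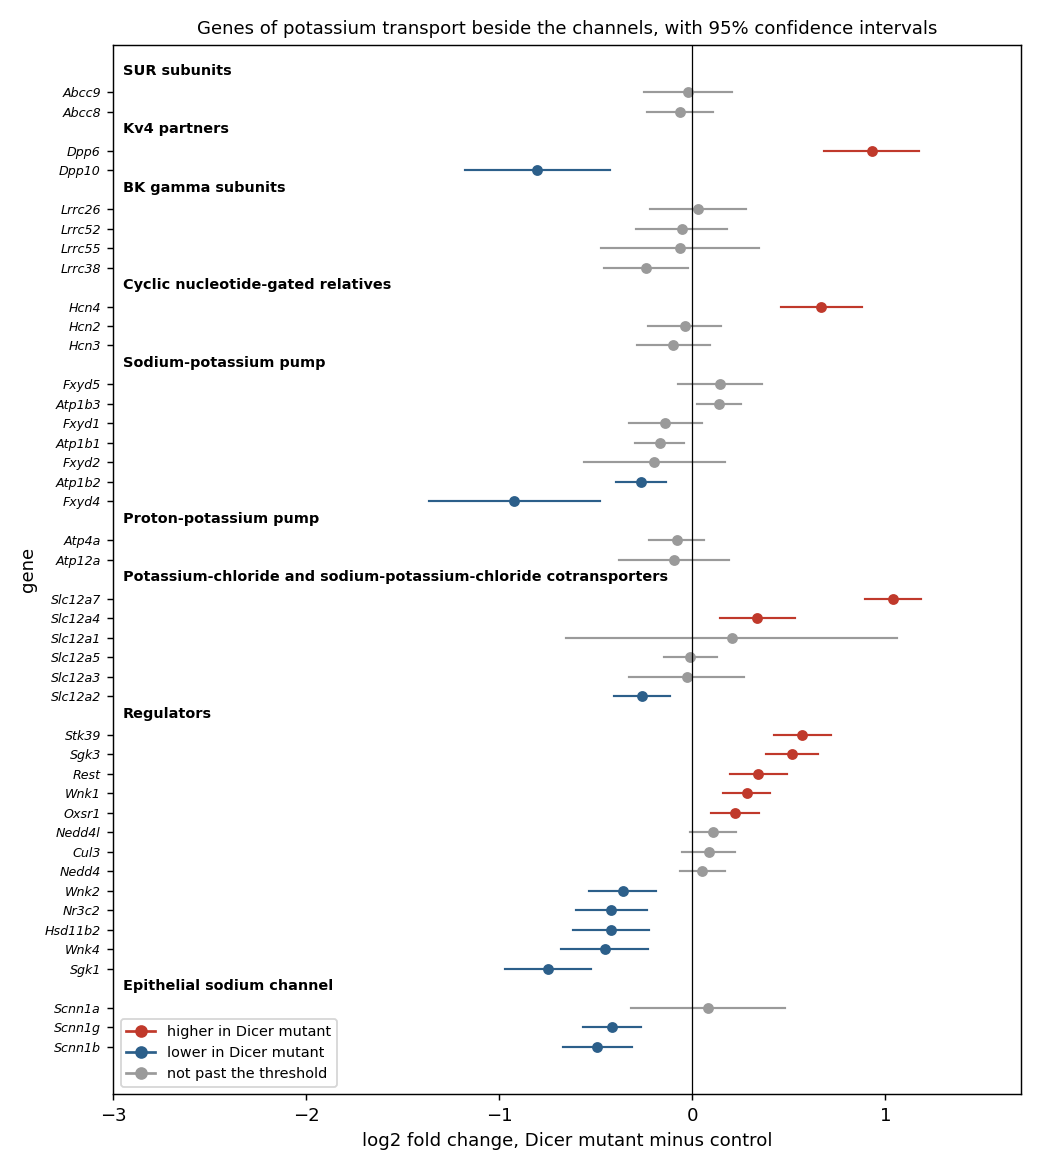
Log2 fold change of Dicer mutant minus control (x axis) with its 95% confidence interval for the 42 measured genes that work beside the potassium channels, grouped by function (y axis). The 9 genes that rose are red, the 11 that fell are blue, and both directions occur among the Kcnd partners, the cotransporters and the regulators.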

How the data were processed

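RNA of the sorted cells was hybridised to 6 Affymetrix arrays. The authors deposited 1 table of log2 values made with RMA, which run from 2.26 to 14.11. RMA and the affy package are named per the submitters' processing notes. No version, build or filter is given there. RMA includes a normalization between arrays, after which the array medians still ran from 7.47 to 7.54, and values of dim probe sets understate changes. Of 23309 probe sets, 20728 had 1 gene symbol, 1174 had several (0 of them with a member's symbol) and 1407 were not listed. The brightest probe set per gene left 19296 genes. No coordinates of probe sets were used.

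Genotype was the sole term of a linear model fitted to each gene (limma 3.58.1, R 4.3.3; 3.93 prior degrees of freedom), with two-sided p-values adjusted by Benjamini-Hochberg and intervals at 95%. The fit was tested on simulated data. "Dim" means below the median of all values, 7.51, and is no detection call. The table holds no batch, slide or date, no 2 arrays shared more than 22 identical values, and precision is limited by having 3 arrays per group.

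The members and lists were chosen with earlier results of these data known. The text names each member past the threshold, the member with the highest mean of each subfamily without one, Kcnj1, Kcnj10, Kcnj15, Kcnj16, Kcnma1, Kcnk1, Kcnq1, Kcnn4 and Kcne1, the 8 other potassium genes with the smallest p, and Dicer1. All other names were chosen after their values were seen. Promoter windows come from RefSeq (GRCm38.p6), and matplotlib 3.10.9 drew the figures. The alternatives tried were a block for the replicate number, leaving out each array, other scalings, probe set rules, variance settings and thresholds.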

Additional observations from a re-analysis of the deposited data

How the results depend on the processing

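Of the 18 potassium channel genes past the threshold, 9 stayed past it in every alternative in which they were tested (Kcnh5, Kcnn4, Kcnq1, Kcnd2, Kcnab1, Kcnc4, Kcnt2, Kcnk6 and Kcnj16; those below the median signal were not tested with dim genes left out). The other 9 lost the call at least once, and 0 of the 18 reversed. With dim genes left out 12 members remained, with 2 higher and 6 lower. That run kept a gene if the mean of either group was above 7.51. Kcnh5 and Kcnn4 were kept only through the control, so nothing is read from these counts. A threshold of 0.01 gave 3 higher and 6 lower, and a threshold of 0.1 gave 19 lower. Leaving out 1 array gave 3 to 8 higher and 9 to 20 lower members, with 20 lower without control replicate 3 and 3 higher without mutant replicate 2. The median of the members stayed negative in every alternative, from -0.19 without control replicate 3 to -0.07 with quantile normalization.

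Replicate numbers are shared between the groups. The deviations of arrays with the same number had correlations of -0.19, -0.10 and -0.22, and those with different numbers -0.01 to 0.18. Deviations from the mean of 3 arrays depend on each other, so these correlations cannot tell whether the replicates were paired. With the replicate number as a block the counts were 4 higher and 9 lower members and 19 of the other potassium genes. The calls of Kcnab3, Kcnmb4, Kcnj4, Kcnk5 and Kcna10 were lost (adjusted p = 0.0595, 0.0511, 0.0966, 0.0663 and 0.0723). Changes of members far below the median signal are limited by the array's signal over background, for which the table has no measure.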
